A study of Mus musculus with 65 samples.

Results

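Casz1, the zinc finger gene floxed in the mutants of this study, was followed as 1 gene of the 55292 gene symbols counted in 65 single outer hair cells (OHCs) of the mouse cochlea at postnatal day 10. Its count was read in every cell, and its level was then ranked over cells against that of every autosomal gene with a mean of at least 20 CPM (counts per 1000000 counts of a cell), separately in each genotype. The filter left 6097 genes in the mutant cells and 6108 in the control cells, of which 5388 were in both sets. The 17 mutant cells, called CKO here, were labelled as coming from mice with Atoh1Cre/+, Casz1flox/flox, Slc26a5FlpO/+ and Rosa26FSF-H2BEGFP/+. The 48 control cells, labelled WT, came from mice with Slc26a5FlpO/+ and Rosa26FSF-H2BEGFP/+ alone. Both genotypes thus carried the FlpO driver in 1 copy of the gene of prestin and the nuclear GFP reporter by which cells were picked by hand. Cre was present in the CKO group alone, so the effects of Cre and of the Casz1 alleles cannot be told apart. Atoh1 is switched on in hair cell precursors, so a Cre under its control acts early and in inner hair cells as well as OHCs. The titles and the design name OHCs, while the protocol shared by all cells names inner hair cells (IHCs) and iOHCs, an abbreviation it leaves undefined. No animal, litter or culture is named, so each genotype counts as 1 sample, and no p-value is given anywhere.

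Casz1 encodes a transcription factor of the castor family, named after its Drosophila relative. In the mouse retina it shapes the order in which cell types are made and acts with the NuRD and Polycomb complexes. In photoreceptors it acts on the layout of the nucleus. Hair cells are the sound receptors of the cochlea: inner hair cells pass the signal on to the nerve, and OHCs amplify it through the motor protein prestin. The title of the study ties Casz1 to the stability of inner hair cell fate and to the survival of OHCs.

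The gene (ENSMUSG00000028977.16) lies on the plus strand of chromosome 4 at 148804429 to 148954889 in GRCm38, with 24 merged exons that cover 12224 bases and 6 annotated transcripts. RefSeq gives it a pair of start sites far apart, and the deposited count does not separate transcripts from the first and the second. Both promoters, each from 250 bases before to 50 bases after a start, are shown for that reason, in lower case with every CG dinucleotide in capitals, on the plus strand of GRCm38.p6 from RefSeq. The upstream one is at chr4:148804142-148804441 and the downstream one, which lies inside the gene, is at chr4:148889097-148889396.
Casz1 upstream promoter: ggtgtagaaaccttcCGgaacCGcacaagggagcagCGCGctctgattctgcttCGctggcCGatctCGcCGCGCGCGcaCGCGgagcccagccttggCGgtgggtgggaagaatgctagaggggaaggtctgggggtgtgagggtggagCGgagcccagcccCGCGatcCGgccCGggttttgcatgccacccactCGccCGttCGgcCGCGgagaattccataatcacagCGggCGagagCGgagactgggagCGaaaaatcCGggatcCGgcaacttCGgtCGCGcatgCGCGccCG
Casz1 downstream promoter: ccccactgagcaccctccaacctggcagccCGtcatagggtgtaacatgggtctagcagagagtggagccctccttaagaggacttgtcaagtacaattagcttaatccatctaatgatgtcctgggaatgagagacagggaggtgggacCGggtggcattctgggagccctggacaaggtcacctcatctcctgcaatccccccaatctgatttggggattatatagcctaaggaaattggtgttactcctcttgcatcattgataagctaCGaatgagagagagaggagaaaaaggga
The upstream promoter held 36 CG dinucleotides (CG, the same letters on both strands) and was 67% G or C, and 6.23% of the 32851 RefSeq promoters of the same length held as many. The downstream promoter held 3 CG dinucleotides at 50.3% G or C, and 76.7% of promoters held as many. The start is therefore CpG-dense upstream and CpG-poor downstream by these letters, which say nothing about which start OHCs use. Which exons were floxed is not given in the sources used here. A count over the whole gene therefore checks neither the deletion nor the labels.

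Casz1 transcripts were counted in most cells of both genotypes. It had at least 1 count in 15 of 17 CKO cells (88.2%, exact binomial interval 63.6 to 98.5) and in 42 of 48 WT cells (87.5%, 74.8 to 95.3). Summed over cells, it stood at 46.2 CPM in CKO cells (9229 counts, exact Poisson interval 45.3 to 47.1) and at 53.3 CPM in WT cells (29194 counts, 52.7 to 53.9). The log2 ratio of CKO over WT was -0.21 (exact conditional interval -0.24 to -0.17), and the CKO cell had the higher CPM in 49.1% of the 816 possible pairings across genotypes. All intervals here are at 95% and cover counting error only, since without molecular identifiers a read is not 1 molecule, and variation among animals is not in them.

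The spread between cells of 1 genotype was far wider than the difference between the genotypes. Per cell, Casz1 averaged 46.6 ± 45.02 CPM in CKO cells (SD, n = 17) and 50.9 ± 52.1 CPM in WT cells (SD, n = 48), so the coefficient of variation was 0.965 in CKO cells and 1.02 in WT cells. CKO cells went from 0 to 154.1 CPM with a median of 41.7 and quartiles of 13.0 and 69.9. WT cells went from 0 to 182.3 CPM with a median of 31.98 and quartiles of 11.2 and 82.8. The ranges and the quartiles of the genotypes overlapped almost entirely, and the median was higher in CKO cells while the sum was higher in WT cells.

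Counts of Casz1 fell into separate classes. In CKO cells, 2 cells had no count, 2 had 1 and 4 counts, none had 5 to 99, and 13 had 158 to 2244 counts. In WT cells, 6 had no count, 4 had 1 or 2 counts, 1 had 13 and 37 had 117 to 2816. Few cells of either genotype thus lay between a handful of counts and more than 100, at totals of 8239671 to 15320549 counts per CKO cell and 7458126 to 17107710 per WT cell. At the upper end, 2 CKO cells were at 100 CPM or more, cell 1 at 154.1 and cell 13 at 120.9 CPM, as were 6 WT cells, with WT cell 25 highest at 182.3 CPM. The 5 highest cells held 64.2% of the summed per-cell CPM in CKO cells and 34.1% in WT cells, groups of unequal size in which 5 cells are an unequal share.

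**Figure D1:**
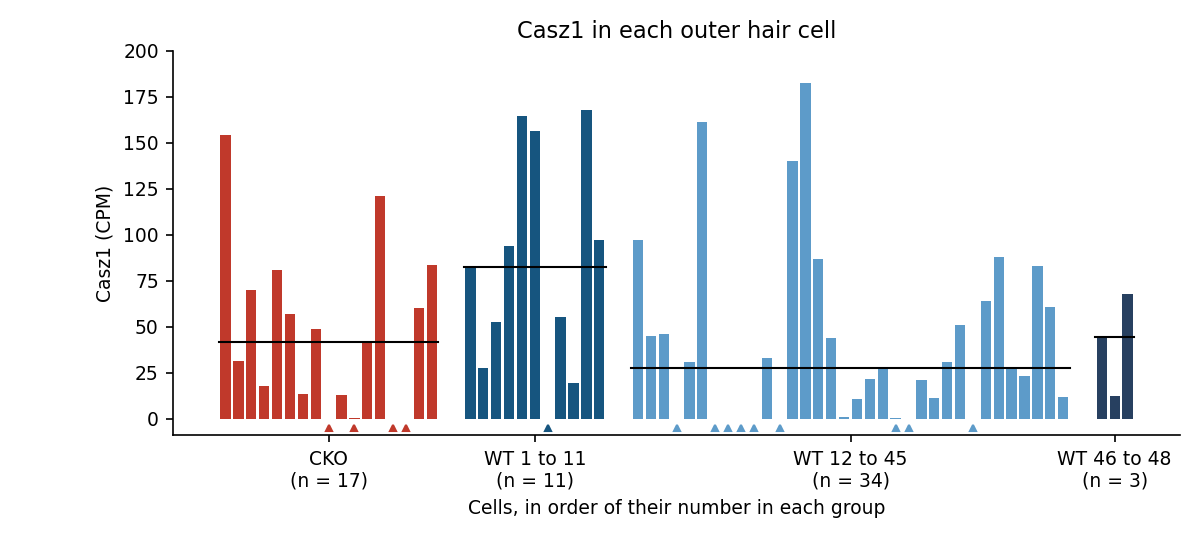
Casz1 in CPM (y axis) in each of the 17 CKO cells and of the 48 WT cells (x axis, 1 bar per cell, WT cells in 3 runs of their numbers), with a black line at the median of each block. Triangles under the axis mark cells with 4 counts or fewer, and the medians are 41.7 CPM in CKO cells and 82.7, 27.4 and 44.3 CPM in WT cells 1 to 11, 12 to 45 and 46 to 48.

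Within WT cells the level of Casz1 moved with the number of the cell. Earlier results on these data split WT cells into runs 1 to 11, 12 to 45 and 46 to 48 by the level of a mitochondrial transcript. Casz1 stood at 85.2 CPM in the summed WT cells 1 to 11 (10 of 11 cells with a count), at 40.6 CPM in cells 12 to 45 (29 of 34) and at 40.97 CPM in cells 46 to 48 (all 3). The log2 ratio of CKO over WT was -0.88 against WT cells 1 to 11, but 0.19 against cells 12 to 45 and 0.17 against cells 46 to 48. The direction of the Casz1 difference between genotypes therefore rests on which WT cells are used, and CKO cells, with no such split, cannot be set in a run. WT cells 12 to 24, which had the lowest totals (7458126 to 9842592 counts), held 4 of the 6 WT cells without a Casz1 count, and 9 of these 13 cells had one, against 20 of 21 in cells 25 to 45.

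Cells were also set apart by counts of Xist or of Y-linked genes. The summed level of Casz1 was 50.4 CPM in the 15 CKO cells with the Xist pattern, against 68.4 CPM in the 9 WT cells with that pattern. The 37 WT cells with the Y pattern were at 49.97 CPM, and no CKO cell had that pattern. In WT, 8 of the 9 Xist-pattern cells were in the first run, and within that run they were at 72.6 CPM, against 117.6 CPM in its 3 cells with the Y pattern. The order of the patterns over all WT cells was thus turned round within that run, and WT cells 12 to 45 held 1 Xist-pattern cell, at 26.9 CPM. The log2 ratio of CKO over WT within Xist-pattern cells was -0.44, and it cannot be told apart from a comparison with the first WT run. Single cells also moved the ratio: over all cells it was -0.50 without CKO cell 1 and -0.31 without CKO cell 13. It was -0.09 without CKO cell 14, a cell with 1 Casz1 count and the highest total of its group, and -0.11 to -0.12 without CKO cells 9, 11 or 15. Without WT cell 5, 6 or 10, all of the first run, it was -0.11, -0.14 and -0.13.

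Set against other genes, the Casz1 difference was small. Of 6832 autosomal genes with at least 20 CPM in the higher genotype, 17.9% were at least 2-fold apart between CKO and WT cells and 8.97% were at least 2-fold lower in CKO cells. Casz1 was not among them, and 26.5% of these genes had a ratio smaller in size. This filter also let in genes that passed only in the genotype where they were higher, while Casz1 passed in both. The reads of an antisense gene, Gm13205, overlap exons of Casz1, and the strand setting of the counting is not given. Gm13205 had 0 counts in the 17 CKO cells and 243 counts in 4 of 48 WT cells, and how much of the Casz1 count came from it was not tested.

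On a scale that allows genes to be compared, CPM per kilobase of merged exons, Casz1 was among the weaker of the 26 genes made up of Casz1 and 25 regulators of hair cell fate. Its level was 3.78 CPM per kilobase in CKO cells, the 17th in order, and 4.36 in WT cells, the 16th. Pou4f3, which hair cells need to mature and survive, was highest at 337.9 in CKO cells and 405.7 in WT cells. Gata3, which marks the prosensory cells and hair cells of the cochlea, was at 101.7 in CKO cells and 95.8 CPM per kilobase in WT cells. Rfx3, a ciliary transcription factor, stood directly above Casz1 in both genotypes, at 4.61 in CKO cells and 5.68 CPM per kilobase in WT cells. Zbtb20 stood above Casz1 in CKO cells, at 6.98, and directly below it in WT cells, at 4.10 CPM per kilobase. Directly below Casz1 in CKO cells was Srrm4, a splicing regulator of hair cells and neurons, at 1.68, against 0.64 CPM per kilobase in WT cells. The per-cell quartiles of Casz1, 1.06 and 5.72 in CKO cells and 0.92 and 6.77 CPM per kilobase in WT cells, overlapped those of Rfx3 and Zbtb20, so the order of these 3 genes does not differ beyond the spread over cells. Tbx2, whose product is needed to make inner and not outer hair cells, was counted in 2 of 17 CKO cells and 1 of 48 WT cells, and Atoh1, which starts hair cell formation, in 1 of 17 CKO cells and 5 of 48 WT cells. Slc26a5 and Ocm, the genes of prestin and oncomodulin that define OHCs, had counts in all 65 cells, and Slc26a5 also drove the FlpO by which cells were picked. Of 11 genes enriched in inner hair cells, Otof was counted in 16 of 17 CKO cells and 42 of 48 WT cells. Nrxn3 was counted in 5 of 17 CKO cells and 40 of 48 WT cells, Atp2a3 in 4 and 30, and Slc17a8 in 6 and 14. The others, Tbx2, Slc7a14, Fgf8, Brip1, Rims2, Shtn1 and Dnajc5b, had counts in at most 2 CKO cells and 5 WT cells. A count of Otof or Nrxn3 alone thus does not separate the cell types, while most genes of that list were counted in few cells.

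**Figure D2:**
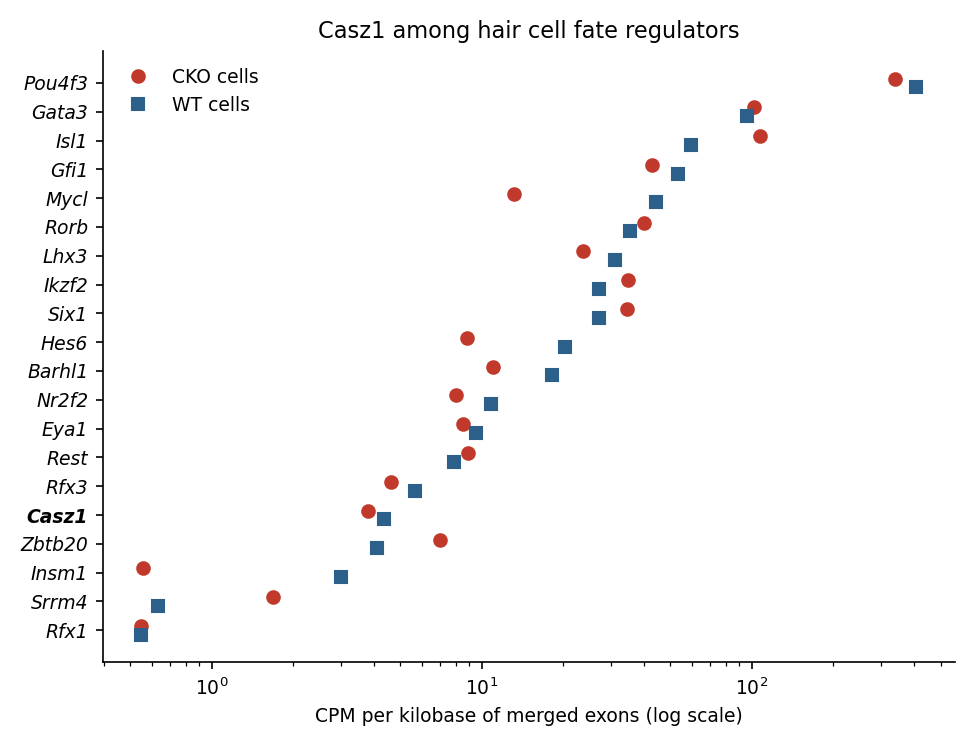
Level of Casz1 and of hair cell fate regulators in CPM per kilobase of merged exons (x axis, log scale), with genes down the page in their WT order, circles for the summed CKO cells and squares for the summed WT cells, for genes with at least 0.1 in both. Casz1 sits near the bottom at 3.78 in CKO cells and 4.36 in WT cells, between Rfx3 and Zbtb20 in the WT order.

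The rank correlations show how Casz1 varied with other genes from cell to cell. Each is Spearman's rho over the 17 CKO cells or the 48 WT cells. The cells of a genotype may share a preparation, animals and runs, and every value of a cell shares its total, so rho is given as a description. In CKO cells 177 of 6097 genes (2.9%) had a rho of 0.5 or more with Casz1 and 107 (1.75%) had -0.5 or less. In WT cells 1 of 6108 genes (0.0164%), Cryzl1, reached 0.5 and 0 (0%) reached -0.5. The WT count was 10 for 0.5 without WT cells 12 to 24, 22 within WT cells 12 to 45, and up to 5 when single cells were left out, that value without WT cell 25. Most genes thus had a weak rho with Casz1 in both genotypes, with a median of 0.023 in CKO cells and 0.035 in WT cells.

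The distribution of rho was wider in the genotype with fewer cells. The SD of rho over genes was 0.250 in CKO cells and 0.148 in WT cells. For ranks with no relation, the formula 1 over the square root of n minus 1 gives 0.25 for 17 cells and 0.146 for 48 cells. The observed spread of Casz1 rhos was thus close to that of unrelated ranks in each genotype, and single genes are to be read against it. In the smaller WT run of cells 1 to 11, 360 genes reached 0.5 and 293 reached -0.5, so a larger count past 0.5 stood beside a smaller number of cells.

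**Figure D3:**
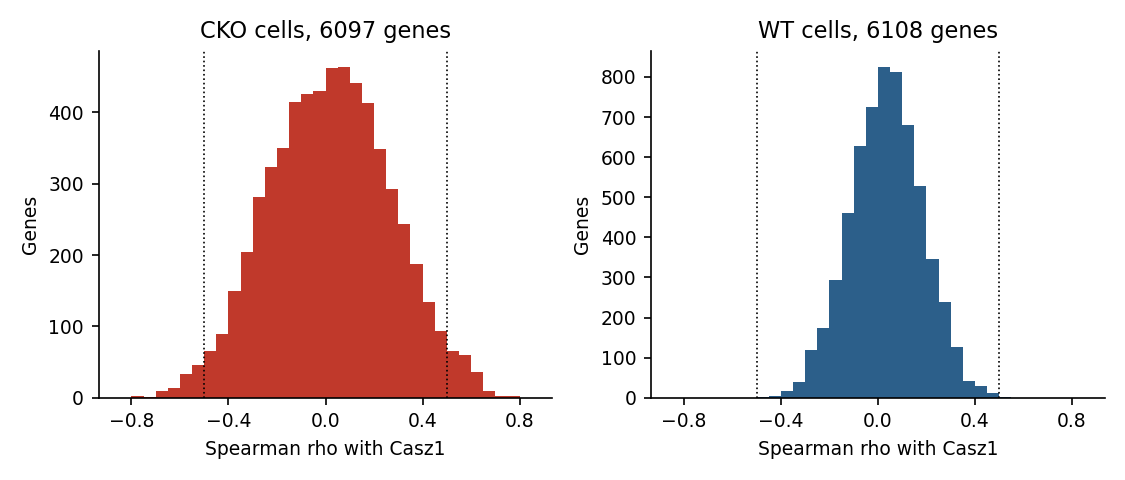
Number of genes (y axis) by Spearman rho with Casz1 (x axis, no unit) over the 17 CKO cells (left, 6097 genes) and the 48 WT cells (right, 6108 genes), with dotted lines at -0.5 and 0.5. The CKO values spread from -0.77 to 0.80 with an SD of 0.250, and the WT values from -0.48 to 0.54 with an SD of 0.148.

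The genes ranked with Casz1 in 1 genotype were mostly not those ranked with it in the other. Over the 5388 genes tested in both, the rhos of CKO and WT cells correlated across genes at a Spearman value of 0.058 and a Pearson value of 0.064, where genes are not independent replicates. The 50 genes with the highest rho in WT cells had a median rho of 0.065 in CKO cells, with 28 of them positive. The 50 with the lowest rho in WT cells had a median of -0.0059 in CKO cells, with 24 positive, beside a median of 0.023 and 53.5% positive over all 5388 genes. Read the other way, the 50 highest of CKO cells had a median of 0.026 in WT cells with 29 positive, and the 50 lowest had 0.029 with 31 positive, beside 0.037 and 60.0% over all shared genes. Top and bottom genes of 1 genotype thus stood close to the middle of all genes in the other. A rho of at least 0.3 was seen in both genotypes for 36 genes and of -0.3 or less in both for 10, while 18 genes had at least 0.3 in size with opposite signs.

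**Figure D4:**
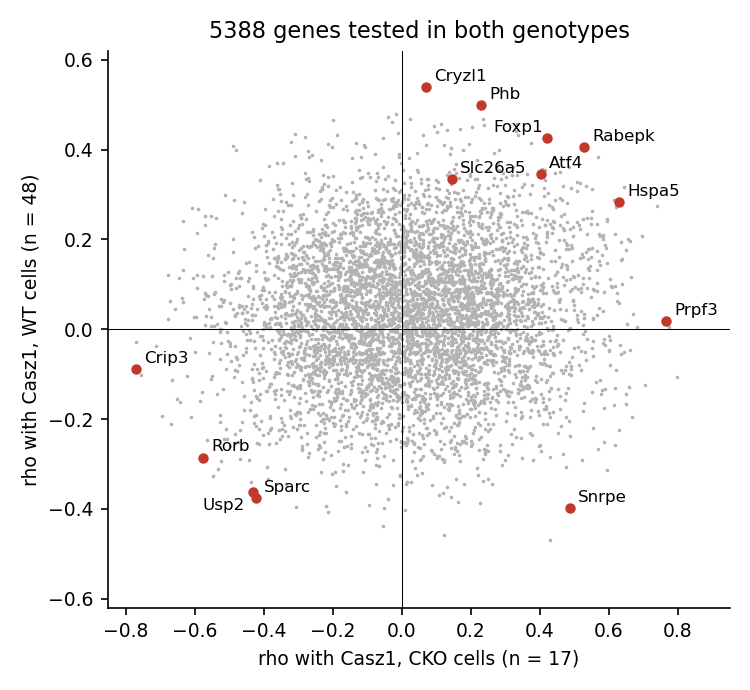
Spearman rho with Casz1 over the 17 CKO cells (x axis) and over the 48 WT cells (y axis) for the 5388 genes tested in both genotypes, 1 grey point per gene, with 13 named genes in red. The cloud is round (Spearman 0.058 across genes), with Foxp1 and Rabepk at the upper right, Sparc and Usp2 at the lower left, and Cryzl1 and Prpf3 each high on 1 axis only.

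The genes highest with Casz1 in WT cells, by the rule for named genes, were led by Cryzl1 and Phb. Cryzl1, a quinone oxidoreductase-like protein, ranged from 0 to 119.1 CPM around a median of 22.5 in CKO cells and from 0 to 232.5 CPM around 41.6 in WT cells. Its rho with Casz1 was 0.07 in CKO cells and 0.54 in WT cells, and in WT cells alone it stayed between 0.42 and 0.70 over the 12 other settings tried. Phb, the mitochondrial scaffold protein prohibitin, had a rho of 0.23 in CKO cells and 0.50 in WT cells, at medians of 177.0 CPM in CKO cells and 69.3 CPM in WT cells. These genes kept a positive WT rho in cells 1 to 11 and in cells 12 to 45 alike, at 0.70 and 0.53 for Cryzl1 and at 0.61 and 0.51 for Phb. Both were chosen by their rho over all WT cells. Their values in these parts and in the other settings are therefore no independent support.

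Among the next genes by WT rho, few kept a like value in CKO cells. Nfic, a nuclear factor I transcription factor, had -0.02 in CKO cells and 0.48 in WT cells. Med6, a subunit of the Mediator complex, had 0.02 in CKO cells and 0.47 in WT cells. Nfic and Med6, near the top in WT cells, were thus near 0 in CKO cells. Sf3a3, a splicing factor, had -0.03 in CKO cells and 0.46 in WT cells. Slc35b1, which brings ATP into the endoplasmic reticulum, had 0.24 in CKO cells and 0.47 in WT cells. Pla2g7, which degrades platelet-activating factor, had 0.33 in CKO cells and 0.46 in WT cells. Pla2g7, unlike the other genes given here from the top in WT cells, had a count in all 65 cells, from 154.8 to 1740 CPM in CKO cells and from 170.8 to 2636 CPM in WT cells.

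The 8 genes lowest with Casz1 in WT cells lay between -0.39 and -0.47. Vti1b, a SNARE protein of endosomes, had a rho of -0.05 in CKO cells and -0.44 in WT cells. Golph3, a Golgi protein, had 0.01 in CKO cells and -0.40 in WT cells, and Lamtor4, a lysosomal Ragulator subunit, had 0.12 in CKO cells and -0.46 in WT cells. Dennd5b, an exchange factor for Rab proteins, had -0.21 in CKO cells and -0.41 in WT cells. The sign was shared by the genotypes for Vti1b and Dennd5b but not for Golph3 and Lamtor4. Mrrf, the mitochondrial ribosome recycling factor, had 0.43 in CKO cells and -0.47 in WT cells, and Snrpe, a core spliceosomal protein, had 0.49 in CKO cells and -0.40 in WT cells. Mrrf and Snrpe thus had opposite signs in the genotypes, and these held in each of the 9 other settings in CKO cells and of the 12 in WT cells. Both were chosen for their low WT rho and the settings reuse the same cells, so the held signs add no support. Tubgcp3, a member of the gamma-tubulin complex, was under the filter in CKO cells and had -0.40 in WT cells. Fam120a had -0.31 in CKO cells and -0.39 in WT cells, but 0.16 in WT cells 1 to 11. Exons of Cryzl1, Nfic, Pla2g7, Mrrf, Vti1b, Dennd5b, Golph3 and Tubgcp3 overlap genes on the other strand, so their counts may hold reads of these. The same holds for Usp2, Ctcf, Siah1a, Ak6, Chrna10, Nrxn3, Gata3, Ikzf2, Gfi1, Ush1c, Tomt, Rbbp4, Egfl7, Rhoa, Jund, Nefl, Nefm, Map2, Fgfr3, Cnp, Tardbp and Pex14, whose values follow.

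In CKO cells the extremes were larger, on fewer cells. Prpf3, a splicing factor, had a rho of 0.76 in CKO cells and 0.02 in WT cells, and its CKO levels went from 0 to 183.7 CPM around a median of 0.12, with a count in 12 of 17 cells. Lrif1, which binds heterochromatin protein 1, had 0.71 in CKO cells and -0.12 in WT cells. Mau2, which helps to load cohesin, had 0.70 in CKO cells and 0.21 in WT cells. Such genes of low median took their rank from cells with and without counts. Wdr60, a dynein-2 subunit of cilia, had 0.68 in CKO cells and 0.00 in WT cells, and Tkt, the transketolase of the pentose phosphate pathway, had 0.67 in CKO cells and 0.03 in WT cells.

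At the low end in CKO cells the genes were better filled. Spop, a substrate adaptor of a cullin ubiquitin ligase, had a rho of -0.71 in CKO cells and -0.04 in WT cells. It was counted in every cell, from 614.9 to 1862 CPM around 877.3 in CKO cells and from 196.6 to 2217 CPM around 1337 in WT cells. Insc, an adaptor of the spindle orientation complex that also marks the bare zone of hair cell surfaces, had -0.69 in CKO cells and -0.19 in WT cells, at medians of 340.0 CPM in CKO cells and 278.5 CPM in WT cells. Both had the same sign in the 2 genotypes but a size under 0.2 in WT cells. Crip3, a LIM domain protein, had -0.77 in CKO cells and -0.09 in WT cells. Zmat2, a zinc finger protein of the spliceosome, had -0.77 in CKO cells and -0.03 in WT cells. Ttc4, a co-chaperone of Hsp90, had -0.76 in CKO cells and -0.10 in WT cells. All 10 of these genes kept the sign of their CKO rho in the 9 other settings. These settings reuse the cells by which the genes were chosen, so the kept sign adds no support.

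The 10 genes with the largest rho of 1 sign in both genotypes were led by transcription factor Foxp1. Foxp1 had a rho of 0.42 in CKO cells and 0.43 in WT cells. It ranged from 75.8 to 942.9 CPM around 284.7 in CKO cells and from 9.83 to 806.3 CPM around 142.5 in WT cells, with a count in every cell. In WT cells its rho was 0.69 in cells 1 to 11 and 0.25 in cells 12 to 45. Foxp1 thus had a positive rho in each set of cells, of unequal size. Ctcf, the insulator protein that organises chromatin loops, had 0.41 in CKO cells and 0.36 in WT cells, and Amph, the endocytic protein amphiphysin, had 0.48 in CKO cells and 0.36 in WT cells. Rabepk, a partner of Rab9, had 0.53 in CKO cells and 0.41 in WT cells, and Ppp1r35, a centriole protein, had 0.57 in CKO cells and 0.38 in WT cells. Cnot4, Siah1a and Ak6 made up the positive side, at 0.37 to 0.46 in CKO cells and 0.35 to 0.41 in WT cells. On the negative side, Sparc, a secreted matrix glycoprotein, had -0.42 in CKO cells and -0.38 in WT cells. Usp2, a deubiquitinase, had -0.43 in CKO cells and -0.36 in WT cells but 0.02 in WT cells 1 to 11. These 10 were chosen for their agreement, so the agreement itself is no finding.

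No listed hair cell gene reached a rho of 0.5 in size with Casz1 in both genotypes. Rorb, a nuclear receptor, had the largest rho in size of the fate regulators, at -0.58 in CKO cells and -0.29 in WT cells, and it was negative in WT cells 1 to 11 (-0.52) and 12 to 45 (-0.24) alike. Rorb was counted in all 65 cells, from 82.5 to 845.4 CPM around 383.9 in CKO cells and from 52.6 to 1195 CPM around 397.0 in WT cells. Slc26a5, the gene of prestin, had 0.14 in CKO cells and 0.33 in WT cells, but -0.05 in WT cells 1 to 11. The sign of Rorb held in all 9 other settings in CKO cells and all 12 in WT cells, while the prestin value moved with the run. Rorb was singled out for its large rho in the same cells, so its held sign adds no support. Pou4f3 had 0.07 in CKO cells and -0.24 in WT cells. Gata3 had 0.23 in CKO cells and 0.11 in WT cells, and Isl1, whose product is shared by early hair cells and neurons, had 0.20 in CKO cells and 0.09 in WT cells. Ikzf2, which drives OHC identity, had 0.07 in CKO cells and 0.10 in WT cells, and Gfi1, needed for hair cell survival, had -0.07 in CKO cells and -0.05 in WT cells. Myo7a, the hair bundle myosin, had 0.05 in both genotypes. The levels of Ikzf2, Gfi1 and Myo7a thus had next to no rank relation with Casz1 in either genotype. Tbx2, Insm1 and Atoh1 were under the filter in both genotypes.

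As a list, 11 of 15 tested fate regulators had a positive rho in CKO cells (median 0.066) and 6 of 16 in WT cells (median -0.040). For all genes the share positive was 53.4% in CKO cells and 59.6% in WT cells. OHC-enriched genes had 9 of 11 positive in CKO cells (median 0.13) and 8 of 11 in WT cells (median 0.10), with Chrna10, a subunit of the efferent acetylcholine receptor, at 0.48 in CKO cells and 0.28 in WT cells. The WT count of OHC genes was near the share of all genes. Their summed level had a rho of -0.05 with Casz1 in CKO cells and -0.16 in WT cells, and -0.46 in WT cells 12 to 45, so the sum and the count of members differ in sign. Ocm, by far the most abundant of them, had -0.07 in CKO cells and -0.20 in WT cells, and -0.49 in WT cells 12 to 45. Genes of both hair cell types had 8 of 11 positive in CKO cells (median 0.060) and 5 of 11 in WT cells (median -0.017). Their summed level had a rho of 0.52 in CKO cells and 0.01 in WT cells. Of 11 genes enriched in inner hair cells, Otof alone passed the filter in CKO cells, with 0.26 there and 0.27 in WT cells, and 3 passed in WT cells, where Nrxn3 had 0.34. Mechanotransduction genes had 8 of 12 positive in CKO cells (median 0.077) and 7 of 12 in WT cells (median 0.017). Within that list Ush1c, which encodes the hair bundle protein harmonin, had 0.38 in CKO cells and 0.23 in WT cells, while Tomt, needed to place the transduction channel, had -0.18 in both. Loxhd1, a stereocilia gene of the list singled out after its values were seen, had 0.65 in CKO cells and 0.01 in WT cells.

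The chromatin partners known from the retina had no common direction with Casz1. Of the NuRD genes, 5 of 11 had a positive rho in CKO cells (median -0.063) and 9 of 11 in WT cells (median 0.063). Chd4, the main NuRD remodeller, had -0.22 in CKO cells and 0.14 in WT cells, and Rbbp4, a histone-binding subunit shared with Polycomb repressive complex 2, had 0.16 in both genotypes. Beside 53.4% of all genes positive in CKO cells and 59.6% in WT cells, these counts give the NuRD list no shared direction over the genotypes, and no member tested reached 0.4 in size. Polycomb repressive complex 1 had 6 of 11 positive in CKO cells (median 0.011) and 8 of 10 in WT cells (median 0.079). Polycomb repressive complex 2 had 4 of 6 positive in CKO cells (median 0.045) and 4 of 7 in WT cells (median 0.054), with the catalytic Ezh1 at 0.07 in CKO cells and -0.12 in WT cells. Genes of the nuclear lamina and its links had 3 of 4 positive in CKO cells (median 0.18) and 3 of 5 in WT cells (median 0.091). Listed genes outside the autosomal set are not in these counts. Of these, Emd of the lamina list had 0.53 in CKO cells and 0.42 in WT cells. Rbbp7 of the NuRD list had -0.26 in CKO cells and 0.32 in WT cells. Of 7 genes linked to Casz1 in other tissues, Egfl7 and Rhoa, its targets in endothelial cells, passed the filter. Egfl7 had 0.24 in CKO cells and 0.12 in WT cells, and Rhoa had 0.01 in both.

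Immediate early genes had mostly positive rhos with Casz1 in both genotypes, and ER stress genes had them in WT cells. Of the genes of the endoplasmic reticulum (ER) and integrated stress response, 7 of 11 had a positive rho in CKO cells (median 0.085) and 11 of 12 in WT cells (median 0.20), beside 53.4% of all genes in CKO cells and 59.6% in WT cells. The CKO count of that list was near the share of all genes. Immediate early genes, which cells switch on soon after a stimulus, had 7 of 8 positive in CKO cells (median 0.36) and 8 of 8 in WT cells (median 0.26). The median over all genes was 0.023 in CKO cells and 0.035 in WT cells. Hspa5, the ER chaperone BiP, had 0.63 in CKO cells and 0.28 in WT cells. It ranged from 2.81 to 5131 CPM around 1707 in CKO cells and from 0.24 to 2361 CPM around 306.3 in WT cells. Atf4, the transcription factor of the integrated stress response, had 0.40 in CKO cells and 0.35 in WT cells. Among immediate early genes, Jun had 0.44 in CKO cells and 0.27 in WT cells, Junb 0.51 in CKO cells and 0.24 in WT cells, and Ier2 0.58 in CKO cells and 0.20 in WT cells. Jund was the exception, at -0.23 in CKO cells and 0.38 in WT cells. Genes of the p53 response and apoptosis were positive in 6 of 6 in both genotypes, at medians of 0.098 in CKO cells and 0.115 in WT cells. Some of these were next to 0, Bnip3 at 0.03 and Ccng1 at 0.04 in CKO cells and Mdm2 at 0.003 and Gadd45a at 0.002 in WT cells. The death effector Bax was highest in CKO cells at 0.50 and had 0.21 in WT cells.

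Sums over the ER and integrated stress list and over the immediate early list had a positive rho with Casz1 in both genotypes. So did the sum of genes of both hair cell types in CKO cells, given above at 0.52. The summed CPM of the ER and integrated stress list had a rho of 0.48 with Casz1 in CKO cells and 0.50 in WT cells. The sum ranged from 577.0 to 9762 CPM around 4812 in CKO cells and from 576.7 to 4857 CPM around 1363 in WT cells. In WT cells rho was 0.65 in cells 1 to 11 and 0.47 in cells 12 to 45, but 0.31 without cells 12 to 24, which had the lowest totals. Without Hspa5 the rho was 0.26 in CKO cells and 0.46 in WT cells, so 1 gene carried much of the CKO value and little of the WT value. The summed immediate early list had 0.48 in CKO cells and 0.38 in WT cells, and 0.22 in WT cells without cells 12 to 24. In CKO cells the ER sum had 0.31 without the 2 cells farthest from the median Casz1, and the immediate early sum had 0.28 by Pearson correlation of log2 values. In the WT cells with a Casz1 count the ER sum had 0.32. Given the number of genes detected per cell, the ER sum had 0.38 in CKO cells and 0.48 in WT cells, and the immediate early sum 0.43 in CKO cells and 0.35 in WT cells. The sums were examined because earlier results on these data had shown both lists higher in CKO cells, and they are a description, with no independent standing.

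**Figure D5:**
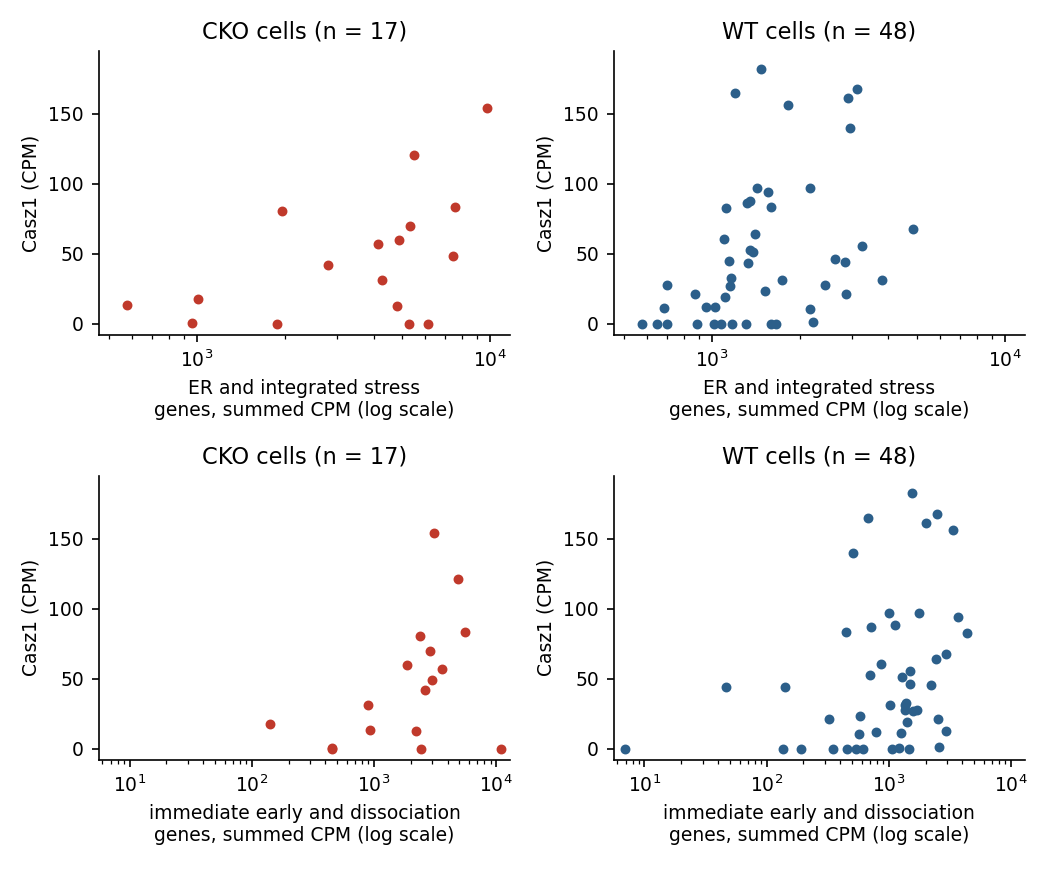
Casz1 in CPM (y axis) against the summed CPM (x axis, log scale) of ER and integrated stress genes (top) and immediate early genes (bottom), 1 point per cell, in 17 CKO cells (left) and 48 WT cells (right). The rank correlation is 0.48 in CKO cells and 0.50 in WT cells for the stress genes, and 0.48 in CKO cells and 0.38 in WT cells for the immediate early genes.

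Measures of cell quality and markers of other cell types also moved with Casz1. Their part in the rhos above was not tested beyond the values given with them. Total counts had a rho of -0.04 with Casz1 in CKO cells and 0.28 in WT cells, where it was 0.06 in cells 12 to 45. The number of genes detected had 0.37 in CKO cells and 0.26 in WT cells. The share of mitochondrially encoded counts had -0.07 in CKO cells and -0.25 in WT cells, and that of ribosomal protein genes 0.22 in CKO cells and -0.01 in WT cells. The rho with genes detected was thus positive in both genotypes. The SD for unrelated ranks, given above, is 0.25 for 17 cells and 0.146 for 48 cells. The summed level of neuron markers had a rho of 0.06 with Casz1 in CKO cells and 0.44 in WT cells, and 0.55 in WT cells 12 to 45. That sum went from 134.9 to 1176 CPM in CKO cells and from 98.9 to 1433 CPM in WT cells. Of the 10 neuron markers, 4 passed the filter in each genotype (Nefl, Nefm, Map2 and Snap25), while Tubb3, Nefh, Prph, Scn9a, Th and Ntrk3 were at or near 0 in both. The part of such RNA in the WT value was not tested. Markers of macrophages, mesenchyme, endothelium and red blood cells had no gene past the filter in either genotype. The supporting cell sum had -0.30 in CKO cells and 0.03 in WT cells, and S100a1, which OHCs also express, made up nearly all of it. S100a1 passed the filter in both genotypes and Fgfr3 in WT cells alone, with a WT rho of 0.09. Jag1 had counts in 12 of 17 CKO cells and 42 of 48 WT cells, Fgfr3 in 6 and 30, and Cdkn1b in 5 and 22. Sox2 had no count in CKO cells and counts in 2 WT cells. A single gene each of the glial and the stria vascularis markers passed the filter, Cnp with -0.10 in CKO cells and 0.03 in WT cells and Atp1b2 with 0.10 in CKO cells and -0.15 in WT cells.

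The genes around Casz1 on chromosome 4 gave a local comparison. Of 42 protein-coding genes within 1 Mb, 25 had at least 20 CPM in the higher genotype. In CKO cells 10 of them were higher and 15 lower than in WT cells, with a median log2 ratio of -0.09. The median over all 6832 autosomal genes was near 0. Of these neighbours 4 (16%) were at least 2-fold apart, beside 17.9% of all genes under the same filter. They were Pex14 at a log2 ratio of 1.27, Rbp7 at 1.29, Pik3cd at -1.12 and Tmem201 at -1.86. Pex14, Rbp7 and Tmem201 passed the filter only in the genotype where they were higher, so their ratios are partly set by it. Pik3cd passed in both genotypes. Pex14, the nearest gene downstream and part of the peroxisomal import machinery, was at 25.95 CPM in CKO cells and 10.8 CPM in WT cells, with a count in 8 of 17 CKO cells and 19 of 48 WT cells. Tardbp, which encodes the RNA-binding protein TDP-43 and lies upstream, was at 65.02 CPM in CKO cells and 89.2 CPM in WT cells. The rho of Tardbp with Casz1 was -0.42 in CKO cells and -0.19 in WT cells. Dffa, the inhibitor of an apoptotic nuclease, had a rho of 0.15 in CKO cells and -0.02 in WT cells. Kif1b, a kinesin of mitochondria and vesicles, had the lowest rho among neighbours, at -0.48 in CKO cells and -0.23 in WT cells. Of the neighbours tested for rho, 12 of 22 were positive in CKO cells and 14 of 21 in WT cells. The share over all genes was 53.4% in CKO cells and 59.6% in WT cells. These counts were near that share and show no pattern particular to the neighbours.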

How the data were processed

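The file deposited by the authors holds integer read counts by gene symbol for 65 single cells and was used as it stands. Per the submitters' processing notes, HISAT2 2.2.1, StringTie 2.2.1 and featureCounts 2.0.1 were run on mm10. Whether featureCounts or StringTie gave the deposited values is unstated, and the annotation, strand setting and cell filters were not given in the sources used here. Smart-Seq HT chemistry gave full-length cDNA, per the labels' protocols, and carries no molecular identifiers. Cells were picked by hand after enzymatic digestion. Totals per cell were 8239671 to 15320549 counts in CKO cells and 7458126 to 17107710 in WT cells.

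Counts were divided by the total of a cell (CPM) or summed within a genotype first. Spearman's rho over cells was computed with scipy 1.17.1 for autosomal genes with a mean of at least 20 CPM. Positions and exon lengths come from GENCODE M21 (GRCm38), in which 96.4% of symbols matched. Symbols with several annotation entries were kept where these lie on 1 chromosome, a step set after first values were seen. No test was run, since each genotype is 1 sample. The rho script recovered strong relations built into simulated counts. That says nothing about weak relations or about genes without counts in many cells. No cell was left out, no doublet caller was run on hand-picked cells, and none of 2080 pairs of cells had identical columns. A cell was given the Xist or the Y pattern with at least 10 counts of Xist or of 4 Y-linked genes and fewer of the other.

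Named genes are Casz1, the 8 highest and 8 lowest by rho in WT cells and the 5 highest and lowest in CKO cells with a count in at least 50% of the cells. They also include the 10 with the largest rho of 1 sign in both, up to 2 members of each list by WT rho, 11 hair cell genes, the nearest genes and any that overlap Casz1. Predicted genes were passed over, and some genes the rule names are not reported here. The members and lists were chosen with earlier results of these data known. Other settings were other scalings (edgeR 4.0.16 TMM, DESeq2 1.42.0 factors), Pearson correlation, other filters, thinning of each cell to 7458126 counts, correlation given the genes detected, and subsets of cells. Leaving out WT cells 12 to 24 and summing the stress lists were added after seeing the data.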

Additional observations from a re-analysis of the deposited data

How the results depend on the processing

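The size and the sign of the Casz1 difference depended on the cells and the summary used. The log2 ratio of CKO over WT, -0.21 from summed counts, was -0.13 from mean CPM, 0.38 from median CPM, -0.25 with TMM factors, -0.33 with DESeq2 factors, -0.12 after thinning, -0.40 without the highest cell of each genotype and -0.27 without WT cells 12 to 24. By WT run (1 to 11, 12 to 45, 46 to 48) it was -0.88, 0.19 and 0.17, -0.44 within Xist-pattern cells, and -0.50 to -0.091 with single cells left out. In CKO cells the genes at a rho of -0.5 or less, 107 at first, numbered 178 given the genes detected, 172 without the 2 cells farthest from the median Casz1 and 234 without the filter. Those at 0.5 or more, 177 at first, numbered 281 at a mean of 5 CPM and 369 without the filter.

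In WT cells the genes at 0.5 or more, 1 at first, numbered 9 by Pearson, 2 with TMM factors, 0 with DESeq2 factors, 2 given the genes detected, 3 without the 2 farthest cells, 22 in cells 12 to 45, 360 in cells 1 to 11, 3 given the runs, 10 without cells 12 to 24, 3 at 5 CPM, 3 without the filter, and 1 to 5 with single cells left out. Those at -0.5 or less, 0 at first, numbered 1 with DESeq2 factors, given the genes detected, in cells with a Casz1 count or without the 2 farthest cells, 3 in cells 12 to 45, 293 in cells 1 to 11, and 0 to 3 with single cells left out. The causes were not tested. Of 1868 values recomputed over 201 results, 1785 stayed within a limit set for their kind of value and 80 moved past it. The limit was a range of values or, for counts of genes, a fixed factor. The other 3, all of the Casz1 ratio, changed sign. Sign changes were counted apart only for that ratio and for single-gene rhos of at least 0.5 in size. Weaker rhos that changed sign are among the other values, such as the NuRD gene Mbd3 in WT cells (0.15 over all, -0.63 in cells 1 to 11). No paired analysis was possible because the labels tie no WT cell to a CKO cell and no test was run. Without animals, with 17 and 48 cells and with many genes at few counts per cell, the size of a single rho is uncertain.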
